A study of Mus musculus with 63 samples.

Results

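Macrophage genes were described in all 47 RNA-sequencing libraries of a study of Chaserr, a long noncoding RNA transcribed next to the chromatin remodeller gene Chd2. The list held 38 genes of macrophages and other myeloid cells, all found among the 24990 gene rows of the deposited tables. Genes entered the list for their known use in these cells, at a time when earlier results of these data were known. It was made of 2 genes for the lineage factor Spi1 and the growth factor receptor Csf1r, 3 complement C1q chains, 4 complement receptors and integrins, 5 Fc receptors and their adaptors, 5 scavenger, pattern and chemokine receptors or surface markers, 6 lysosome and phagosome genes, 3 NADPH oxidase subunits, 3 genes of the actin cytoskeleton and 7 leukocyte surface and antigen presentation genes.

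The study compared wild-type (WT) mice with mice in which the promoter and first exon of Chaserr had been deleted in 2 founder lines. For the Chaserr-/- Chd2m/m mice the deletion was made anew in Chd2m/m mice. By the paper, guides were injected in CB6F1 Ola HSD mice, and the offspring were backcrossed to C57BL/6 Ola HSD. Whole embryos at E9.5 and E13.5 and adult brains were WT or Chaserr+/-, with 3 libraries in each of the 6 groups. Mouse embryonic fibroblasts (mEFs), the adherent cells grown from E13.5 embryos after the head and liver had been removed, were Chaserr+/- (3), Chaserr-/- (3), Chd2m/m, which carry a frameshift deletion in the third exon of Chd2 (2), or Chaserr-/- Chd2m/m (3), and each mutant group came with 3 WT cultures of its own set. Another 6 libraries were input, CHD2 and IgG RNA immunoprecipitations (RIP), 2 each, labelled as the neuroblastoma line Neuro2a. The labels place the WT and Chaserr-/- Chd2m/m mEFs in 1 set by description but name different crosses in the titles. Expected counts summed to between 7621335 and 33192002 per library. Chaserr was listed at 0 TPM (transcript abundance scaled for length and library size) in all 3 Chaserr-/- cultures, against 8.63 to 13.84 in their WT cultures, and at 0 to 0.23 TPM in Chaserr-/- Chd2m/m cultures, against 79.97 to 93.67. The labels do not say whether replicates were separate cultures or animals, and the paper describes the 3 Chaserr-/- mEFs as independently derived. The p-values measure the spread between these libraries.

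Macrophages are phagocytes that arise first in the yolk sac, populate the embryo and persist in adult tissues, where the brain holds its own kind, the microglia. They depend on the receptor CSF1R and on the transcription factor PU.1, the product of Spi1, which binds purine-rich sites at myeloid promoters. Cultures of embryonic fibroblasts can carry macrophages from the embryo along with the fibroblasts. In bulk RNA, fewer cells of a type and less RNA per cell cannot be told apart.

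The promoters of 4 members whose levels carry the results on Chaserr-/- mEFs are shown because each holds letters that PU.1 and related ETS factors are known to bind. Each stretch runs 5′ to 3′ on the gene's strand from 250 bases before the RefSeq start to 30 bases after it (GRCm38.p6), and capitals mark every match to GAGGAAGT or to its shorter part GGAAGT on either strand, where a match on the other strand reads ACTTCC. Cd68 codes for a lysosomal glycoprotein of macrophages (chr11:69666141-69666420, minus strand), Laptm5 for a lysosomal membrane protein of blood cells (chr4:130913066-130913345, plus strand), C1qc for a chain of complement C1q (chr4:136892885-136893164, minus strand) and C5ar1 for the receptor of complement C5a (chr7:16259309-16259588, minus strand).
Cd68: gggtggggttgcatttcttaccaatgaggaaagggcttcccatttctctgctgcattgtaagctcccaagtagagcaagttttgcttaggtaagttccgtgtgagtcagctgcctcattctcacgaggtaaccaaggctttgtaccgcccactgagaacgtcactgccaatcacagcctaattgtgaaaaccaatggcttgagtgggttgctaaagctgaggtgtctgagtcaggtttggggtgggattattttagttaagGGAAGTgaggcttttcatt
Laptm5: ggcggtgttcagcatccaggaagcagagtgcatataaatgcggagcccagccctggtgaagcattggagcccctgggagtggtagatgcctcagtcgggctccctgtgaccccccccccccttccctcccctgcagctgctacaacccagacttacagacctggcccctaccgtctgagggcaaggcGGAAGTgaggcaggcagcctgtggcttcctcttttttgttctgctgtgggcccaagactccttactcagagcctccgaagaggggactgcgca
C1qc: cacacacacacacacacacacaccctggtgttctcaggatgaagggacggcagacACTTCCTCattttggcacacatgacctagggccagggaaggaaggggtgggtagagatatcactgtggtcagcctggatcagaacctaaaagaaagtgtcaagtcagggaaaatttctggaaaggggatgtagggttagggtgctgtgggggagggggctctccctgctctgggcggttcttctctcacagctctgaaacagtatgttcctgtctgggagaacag
C5ar1: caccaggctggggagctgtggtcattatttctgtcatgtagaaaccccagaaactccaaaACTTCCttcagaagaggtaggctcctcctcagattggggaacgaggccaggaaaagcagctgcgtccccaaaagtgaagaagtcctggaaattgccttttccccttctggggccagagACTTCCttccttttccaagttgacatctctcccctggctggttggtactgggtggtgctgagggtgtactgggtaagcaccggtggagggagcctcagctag
Of the 4 promoters shown, only that of C1qc holds the longer letters GAGGAAGT. Those letters were found in 4 of the 27 members with a RefSeq promoter and in 3.69% of all 27025 genes with one. The shorter letters GGAAGT, which lie within the longer ones, were found in 14 of the 27 members and in 26.5% of all genes. A match is a description of these windows and not a binding site.

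The summed TPM of the 38 members, a level per length, differed between cultures and tissues. Replicates of a group could differ widely too, as in Chaserr+/- mEFs at 313 to 654 TPM. In the 4 WT mEF sets the sums were 410, 495 and 558 TPM in the set of the Chaserr+/- cultures, 666, 865 and 980 in the Chd2m/m set, 1238, 1266 and 1328 in the Chaserr-/- Chd2m/m set, and 1651, 1801 and 1991 in the Chaserr-/- set. The 4 WT sets did not overlap, and the median of the highest was 3.64 times that of the lowest. E9.5 WT embryos summed to 33.9 to 38.1 TPM, E13.5 WT embryos to 552 to 608 TPM and adult WT brains to 1042 to 1335 TPM. Macrophage genes thus stood 16.7 times higher at E13.5 than at E9.5 by the ratio of median sums and 28.3 times higher by the median log2 TPM of the members. They stood 1.93 times higher in brain than at E13.5, although fibroblast cultures of 2 sets reached sums at or above that of the brain. The embryos and brain replicate 3, at 1335 TPM in WT, shared a library kit, and the mEFs and the other brains another. Brain or mEFs against embryos thus also compare kits, and the part of the kit was not tested.

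**Figure D1:**
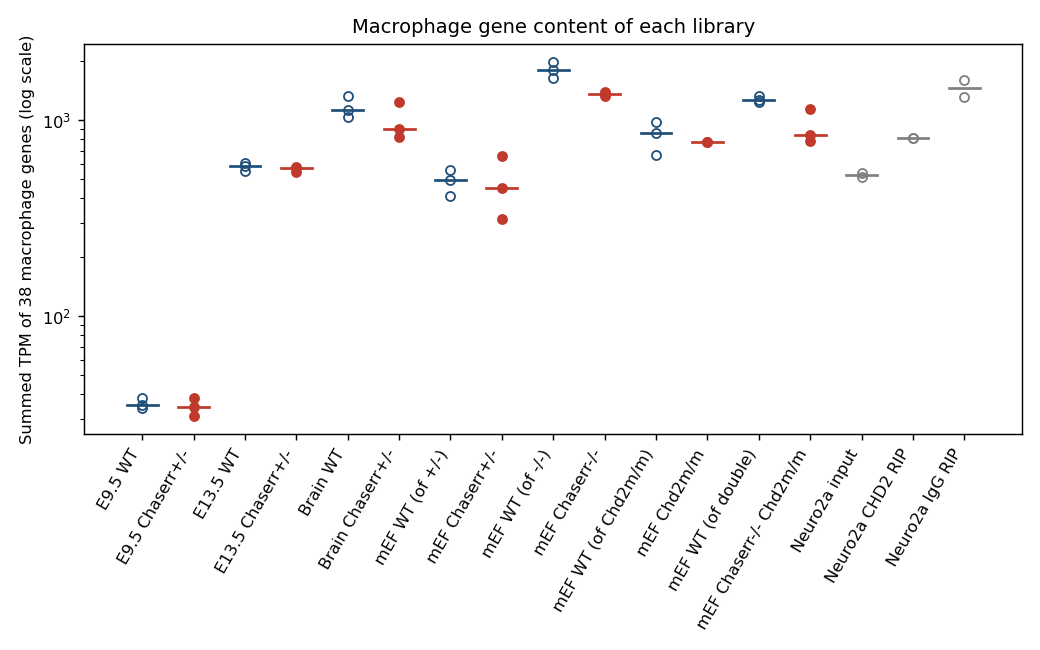
Summed TPM of the 38 macrophage genes in each of the 47 libraries on a log axis, with points for libraries and lines for group medians; open blue circles are WT, filled red circles mutant and open grey circles RIP libraries. E9.5 embryos sit between 30.8 and 38.1 TPM and every other library above 312 TPM, and the WT mEF sets range from 410 to 1991 TPM. The embryos and brain replicate 3 shared a library kit, the mEFs and the other brains another, and the RIP libraries had their own.

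The members differed in how they made up these sums. In WT mEFs of the Chaserr-/- set, Fcer1g, the common gamma chain of activating Fc receptors, led with 367 ± 38.2 TPM (SD, n = 3) and made up 20.2% of the sum. It was followed by Tyrobp, an adaptor that passes signals from receptors such as TREM2, at 227 TPM, the lysozyme gene Lyz2 at 201 TPM, C1qb at 183 TPM and Cd68 at 145 TPM. The same 5 genes led in WT mEFs of the Chaserr+/- set, at 101 TPM for Fcer1g, 72.1 for Lyz2, 39.4 for C1qb, 39.0 for Cd68 and 35.8 for Tyrobp. Lyz2 shares sequence with Lyz1, Fcgr3 with other Fc receptor genes, and the row of Cd74 also holds a microRNA gene, so their counts could be split or joined by the counting.

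The 36 members that passed the filter on low counts within each set, leaving out Aif1 and Cd74, all differed among the 4 WT mEF sets (edgeR quasi-likelihood test, adjusted p under 0.05), where 89.6% of all such genes did. Each adjusted p that follows is from that test over all 4 sets, and no pair of WT sets was tested. Tyrobp was measured at 34.8, 35.7 and 36.9 TPM in the Chaserr+/- set and at 218, 227 and 237 TPM in the Chaserr-/- set, with no overlap (adjusted p = 5.8e-09). Csf1r, the receptor of the growth factors CSF1 and IL-34, was at 5.75, 6.77 and 7.53 TPM in the Chaserr+/- set and at 22.39, 22.53 and 25.36 TPM in the Chaserr-/- set (adjusted p = 8.39e-07). The tetraspanin gene Cd53 was highest in WT cultures of the Chaserr-/- Chd2m/m set, at 26.1 to 28.4 TPM, against 7.56 to 11.7 TPM in the Chaserr-/- set. Cx3cr1, the fractalkine receptor, had the largest p of the list (adjusted p = 0.0224) and no longer passed without WT replicate 4 or 6 of the Chaserr-/- set. The 4 sets came from different pregnancies or crosses, and set and culture cannot be told apart.

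**Figure D2:**
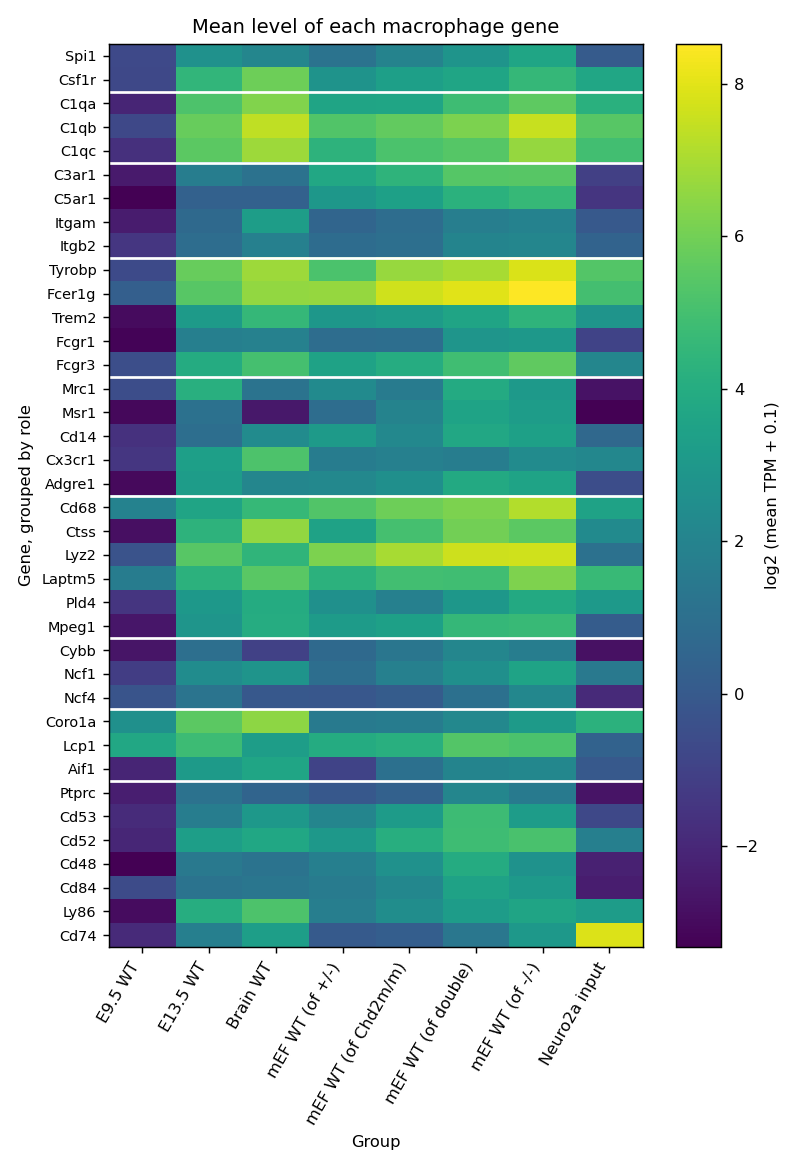
Mean TPM of each member in 8 groups, as log2 of the mean plus 0.1, with genes ordered by role and white lines between roles. The E9.5 column is dark for all but a few genes such as Lcp1 (13.6 TPM), C1q and adaptor genes are bright in brain and mEFs, and Msr1 and Mrc1 are low in brain.

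Between E9.5 and E13.5, the 11 members that passed the filter on low counts among the E9.5 libraries alone all rose in WT embryos, where 37.8% of all genes that passed at both stages were called higher. Their median log2 difference was 2.46 (range 0.70 to 5.20), and that of all such genes was -0.04. Mrc1, the mannose receptor of tissue macrophages, was at 0.54, 0.59 and 0.69 TPM at E9.5 and at 16.45, 17.55 and 18.25 TPM at E13.5 (log2 difference 4.59 ± 0.11 SE, adjusted p = 2.56e-09). Every E13.5 value stood above every E9.5 value. Csf1r went from 0.40 to 0.55 TPM to 19.7 to 25.6 TPM (5.20 ± 0.16 SE, adjusted p = 8.68e-09), the largest difference of the 11. Lcp1, which codes for the actin-bundling protein L-plastin, was at 13.31, 13.55 and 14.01 TPM at E9.5 and made up 38.2% of the E9.5 sum. Its log2 difference was the smallest of the 11, 0.70 ± 0.05 SE, and the next were those of the NADPH oxidase subunit Ncf4 (1.35 ± 0.35 SE), Cd68 (1.58 ± 0.14 SE) and the leukocyte receptor Cd84 (1.72 ± 0.21 SE).

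The other 27 members were too low at E9.5 to pass there and entered the comparison through their E13.5 values, so their levels are given without a test. C1qc was at 0.16 to 0.33 TPM at E9.5 and at 42.5 to 48.5 TPM at E13.5, Spi1 at 0.44 to 0.63 and 5.56 to 6.79 TPM, and Fcer1g at 0.87 to 1.27 and 40.4 to 48.5 TPM. C5ar1 and Cd48 had no count in the 3 E9.5 WT libraries, which makes them at least 40.1-fold and at least 38.4-fold higher at E13.5 against a floor of 3 counts over the group. Markers of neutrophils and monocytes, a list of other blood cells, summed to 1.77 to 2.39 TPM at E9.5 and to 67.9 to 96.8 TPM at E13.5.

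In adult WT brain against the E13.5 embryo, 22 members were higher and 7 lower of the 37 that passed the filter in both tissues (40.3% and 38.1% of all such genes). In either direction 29 of the 37 members were called, and 11267 of all 14374 such genes, so the number of calls does not set the members apart. The model had a term for the library kit, which brain replicate 3 alone shared with the embryos, so each difference and its SE rest on that 1 brain library, assumed to vary like the others. The median log2 difference of the members was 0.90 and that of all such genes 0.03. Ctss, the protease cathepsin S, was at 63.8, 66.4 and 160 TPM in brain against 19.1 to 21.5 TPM at E13.5 (3.05 ± 0.09 SE, adjusted p = 4.59e-08). Brain replicate 3 had the highest value, and without the kit term, over all 3 brains, the difference was 2.40 ± 0.33 SE (adjusted p = 0.000547). Itgam, the alpha chain of complement receptor 3, was at 7.14, 9.60 and 11.87 TPM against 1.33 to 1.74 TPM (3.00 ± 0.18 SE), and the lipid-sensing receptor gene Trem2 at 14.2, 21.2 and 34.9 TPM against 8.27 to 9.10 TPM (2.05 ± 0.21 SE, and 1.58 ± 0.30 SE without the kit term). Cx3cr1 was 1.94 ± 0.13 SE higher, the C1q chains 1.60 to 1.79 and Csf1r 1.69 ± 0.14 SE, all on the log2 scale.

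The 7 members lower in brain included the mannose receptor. Mrc1 was at 1.38 to 2.96 TPM in brain (-2.51 ± 0.19 SE), Cybb, the catalytic subunit of the phagocyte oxidase, was 2.50 lower and Lcp1 1.57 lower on the log2 scale. Msr1, a scavenger receptor for modified lipoproteins, was at 0 to 0.12 TPM in WT brain and at 1.88 to 2.29 TPM at E13.5, and it was too low among the brain libraries to be given a test. Some members turned on the kit term. C3ar1 (-1.46 with it) and C5ar1 (-1.32) were called lower with the term, and stood at -0.46 (adjusted p = 0.286) and 0.10 (adjusted p = 0.868) without it, while Fcer1g went from 0.03 (adjusted p = 0.874) to 1.37 (adjusted p = 0.0251). Of 10 listed microglia genes, all of which passed in both tissues, 7 were higher in brain and 2 lower. Their log2 differences ranged from -1.29 to 4.74 with a median of 3.01, and Selplg (4.63 ± 0.15 SE) and Siglech (4.74 ± 0.18 SE) were among the higher. Of the 7 genes of embryonic and tissue-resident macrophages that passed in both, 1 was higher and 6 lower, with a range of -2.98 to 1.65. F13a1 (-2.98 ± 0.17 SE) and Stab1 (-2.29 ± 0.14 SE) were among the lower.

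In Chaserr-/- mEFs most macrophage genes stood below WT, and Cd68 and Laptm5 fell. Their summed TPM was 1328, 1363 and 1391 in Chaserr-/- cultures against 1651, 1801 and 1991 in WT cultures of the same pregnancy, a ratio of medians of 0.757 with no overlap. All 38 members were tested, 2 were called lower by edgeR (0.0957% of all 13580 tested genes were called lower) and none higher. The count of members at an unadjusted p under 0.05 was 17 lower, where 16.1% of all tested genes were, and 1 higher. By sign, 30 members were below 0 and 8 above, with a median log2 difference of -0.36 against -0.02 over all genes. The 3 Chaserr-/- values lay below all 3 WT values for 17 members and above them for 0, where 21.4% of all tested genes were lower without overlap.

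Values by library for this comparison are CPM, counts scaled to library size, with TMM factors that even out library composition. Cd68 was at 111, 84.9 and 94.7 CPM in WT and at 34.5, 49.96 and 37.0 CPM in Chaserr-/- mEFs (-1.26 ± 0.17 SE, adjusted p = 0.0359 by edgeR). Laptm5 was at 113, 100.0 and 102 CPM in WT and at 45.8, 61.0 and 57.3 CPM in Chaserr-/- mEFs (-0.94 ± 0.14 SE, adjusted p = 0.0476). The groups did not overlap for either gene.

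The next members by p missed the threshold in the same test. C1qc was at 59.6, 58.0 and 53.1 CPM in WT and at 27.0, 34.1 and 31.3 CPM in Chaserr-/- mEFs (-0.88, adjusted p = 0.0522). Csf1r was at 59.0, 51.3 and 51.5 CPM in WT and at 23.6, 29.7 and 37.6 CPM (-0.83, adjusted p = 0.0522). C5ar1 was at 37.7, 34.2 and 34.1 CPM in WT and at 14.1, 16.0 and 25.1 CPM (-0.94, adjusted p = 0.0522). In all 3 genes the groups did not overlap. Tyrobp (-0.62), C1qb (-0.66) and Fcer1g (-0.53), with adjusted p of 0.0522, 0.0522 and 0.0523, had no overlap either. Spi1 was at 8.64 to 11.8 CPM in WT and at 4.31 to 6.43 CPM in Chaserr-/- mEFs (-0.85 ± 0.23 SE, adjusted p = 0.0541). Cd74, the invariant chain of MHC class II, had the lowest estimate of the list at -1.31 ± 0.36 SE (adjusted p = 0.055). DESeq2 called 11 members lower and 5.8% of the 18671 genes with any count. This base, used for all DESeq2 shares here, includes genes to which DESeq2 gave no adjusted p.

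**Figure D3:**
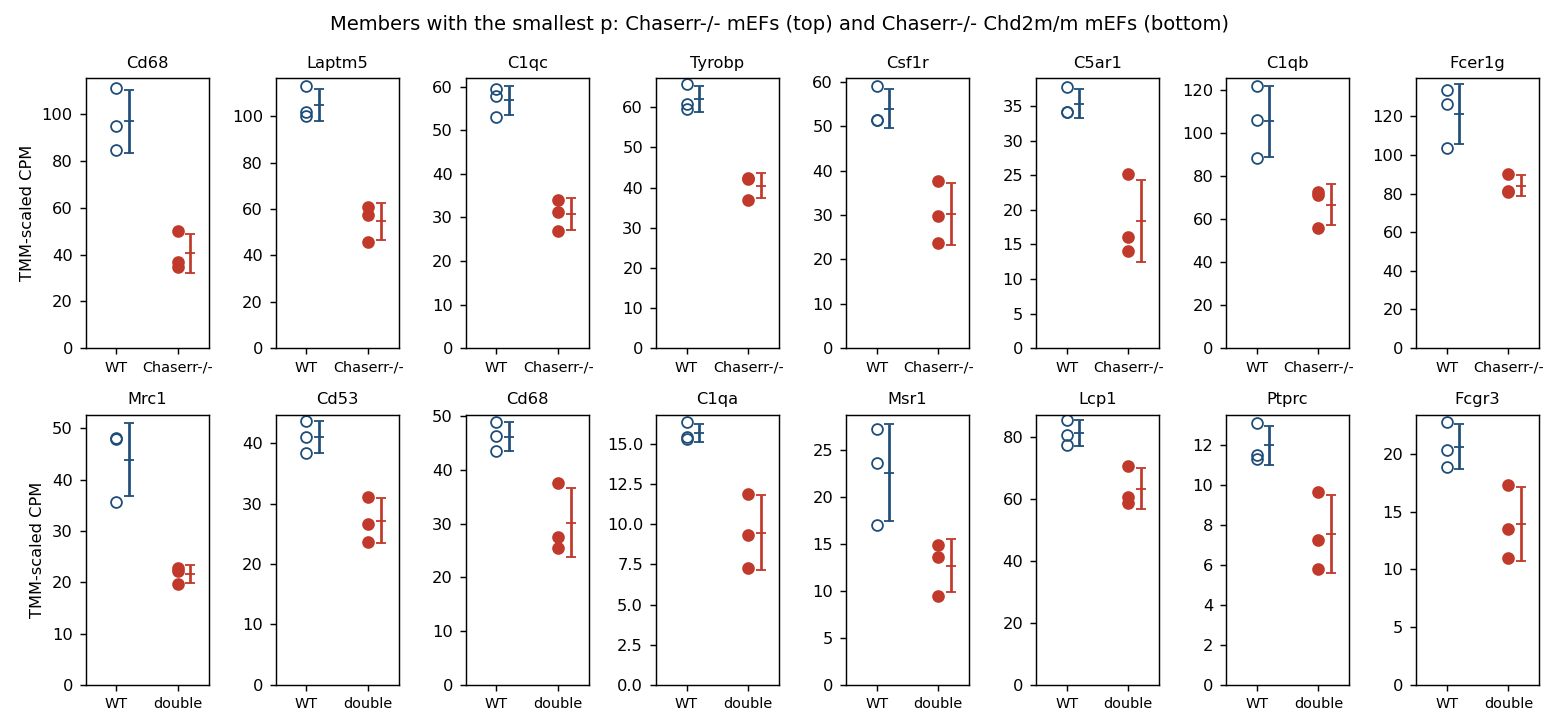
TMM-scaled CPM of the 8 members with the smallest p in Chaserr-/- mEFs (top) and in Chaserr-/- Chd2m/m mEFs, marked double (bottom), each against its WT set, with points for libraries and bars for the mean and SD (n = 3). In the top row the groups do not overlap in any panel, with Cd68 at 84.9 to 111 CPM in WT and 34.5 to 49.96 CPM in Chaserr-/- mEFs.

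The differences in Chaserr-/- mEFs varied with the GC content of the transcripts. The members ranged from 37.29% GC (Cd53) to 59.52% (C1qa), with a median of 51.43% against 48.9% over all genes. Across the 38 members the correlation of the log2 difference with GC content was -0.763 (Spearman -0.751), and across all genes it was -0.676; genes of the same libraries are not independent replicates. The members above 0 were mostly of low GC. Cd53 was at 19.5, 12.3 and 14.1 CPM in WT and at 39.6, 19.5 and 16.4 CPM in Chaserr-/- mEFs (0.72, unadjusted p = 0.0465, adjusted p = 0.141), with overlap. Cd48 stood at 0.46, Mrc1 at 0.39, Msr1 at 0.36 and Ctss at 0.24.

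After each library's counts were corrected for GC content and length, those estimates were near 0 or below it, and the median of the list was the same. Cd53 stood at -0.04, Cd48 at -0.06, Mrc1 at -0.03, Msr1 at -0.26 and Ctss at -0.03. In all, 37 of 38 members were below 0, the exception being Fcgr1, the high-affinity Fc receptor, at 0.18. The median was -0.36 before and after, and the correlation with GC content became -0.123 over the members and -0.0275 over all genes. Among the 19 members of lower GC, 7 were above 0 before the correction and 0 after it, and their median went from -0.15 to -0.35, while that of the 19 members of higher GC went from -0.66 to -0.38.

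With the correction, 6 members were called lower, where 0.707% of all tested genes were. These were Cd68 (-1.14, adjusted p = 0.016), Laptm5 (-0.69, adjusted p = 0.0225), C1qc (-0.59, adjusted p = 0.043), Lcp1 (-0.67, adjusted p = 0.0442), C5ar1 (-0.99, adjusted p = 0.0489) and C3ar1, the receptor of complement C3a (-0.72, adjusted p = 0.0489). Cd68 and Laptm5 passed in both fits. Csf1r (-0.55, adjusted p = 0.0631), Tyrobp (-0.35, adjusted p = 0.084) and C1qb (-0.32, adjusted p = 0.165) did not pass, and C1qa went from -0.47 to -0.06.

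**Figure D4:**
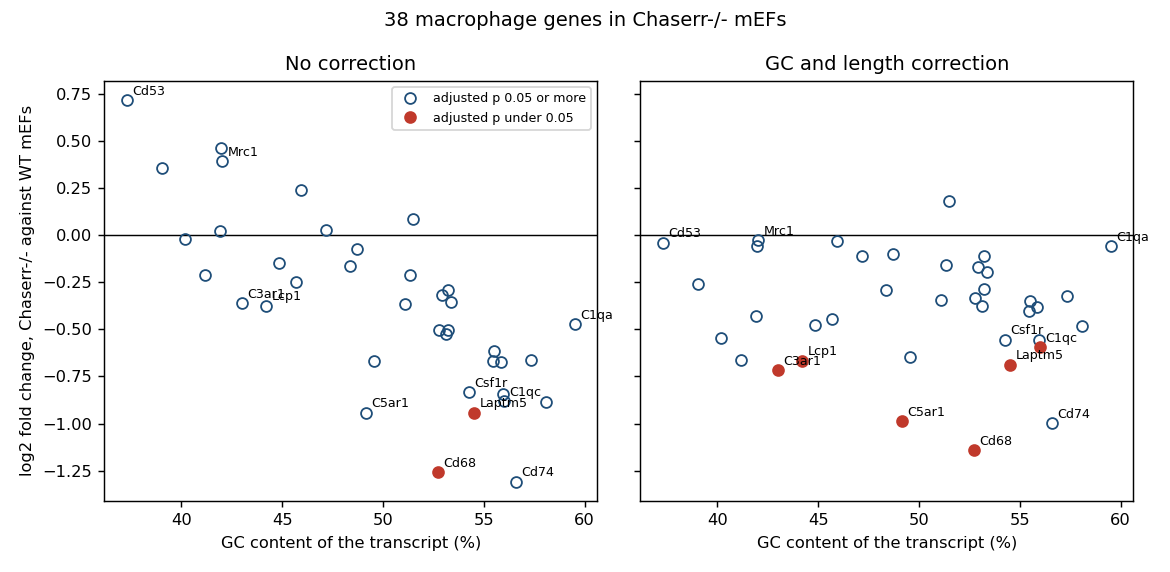
Log2 fold change of each member in Chaserr-/- against WT mEFs by the GC content of its transcript, without (left) and with (right) the GC and length correction, with called members filled in red. On the left the points fall from 0.72 for Cd53 at 37.29% GC to -1.31 for Cd74, and on the right all but 1 lie below 0.

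Genes of other cells moved in the same libraries. Of 10 listed neutrophil and monocyte genes, 7 passed the filter on low counts. Genes can pass it through the WT libraries alone and then lie below 0, so signs are not counted for them or for mast cell genes. Whether any of these genes passed that way was not checked. For the neutrophil genes only estimates are therefore given, without a call. Mpo, the neutrophil myeloperoxidase, stood at -3.03 ± 0.38 SE, with Ltf at -2.42 and Ngp at -2.36. Their summed TPM was 89.1 to 193 in WT and 34.8 to 94.5 in Chaserr-/- mEFs, which overlap. Of the mast cell genes, 6 were tested and none was called. Their sums were 29.9 to 243 TPM in WT and 24.2 to 24.8 TPM in Chaserr-/- mEFs, without overlap. WT replicate 4 was the highest, with the mast cell protease Tpsb2 at 80.24 TPM against 15.06 and 9.04 TPM in the other WT cultures. No neutrophil or monocyte gene was at 0 in all 3 Chaserr-/- cultures, and Camp was at 0 in replicate 2. Of 6 tested osteoclast genes, which belong to a cell of the macrophage lineage, 4 were below 0 and 2 above, with a median of -0.30 and none called. Ctsk had the smallest p of them, at -0.93 (adjusted p = 0.0522, and adjusted p = 0.0196 after the correction). Fibroblast genes summed to 9252 to 9912 TPM in WT and 8011 to 9259 TPM in Chaserr-/- mEFs, with Col1a1 at -0.63 before and -0.17 after the correction. The part of these cells, and of their number, in the result was not tested.

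The number of calls in Chaserr-/- mEFs changed with each library left out. No member was called without WT replicate 4, 5 or 6 or without Chaserr-/- replicate 3, while 8 were called without Chaserr-/- replicate 1 and 10 without Chaserr-/- replicate 2. The median of the members stayed between -0.51 and -0.34 in these 6 fits. With the WT cultures of the Chaserr+/- pregnancy added to the WT group, the median became 0.22 and 0 members were called, and those cultures held 410 to 558 TPM of the members.

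In Chaserr-/- Chd2m/m mEFs macrophage genes were also mostly below their WT set, and Mrc1 fell. Their summed TPM was 787, 840 and 1140 against 1238, 1266 and 1328 in WT, a ratio of medians of 0.664 with no overlap. Of 38 members tested, 1 was called lower (0.0426% of all 14076 tested genes) and 0 higher, while 20 were lower, where 5.73% of all tested genes were, and 0 higher at an unadjusted p under 0.05. By sign, 36 were below 0, the median log2 difference was -0.43 and that over all genes was -0.01. All 3 mutant values lay below all WT values for 18 members, where 7.4% of all tested genes were lower without overlap.

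Mrc1 was at 47.9, 48.1 and 35.7 CPM in WT and at 22.3, 19.6 and 22.8 CPM in Chaserr-/- Chd2m/m mEFs (-1.03 ± 0.14 SE, adjusted p = 0.0339 by edgeR). The groups did not overlap, and after the GC and length correction the adjusted p was 0.058. Cd53 was at 43.7, 38.4 and 41.1 CPM in WT and at 31.1, 26.6 and 23.7 CPM in the mutant (-0.59, adjusted p = 0.115), and Cd68 at 43.5, 46.3 and 48.9 against 37.6, 25.4 and 27.6 CPM (-0.62, adjusted p = 0.159). Neither gene overlapped between groups. C1qa (-0.73), Msr1 (-0.82), Lcp1 (-0.36), Ptprc, which codes for the leukocyte phosphatase CD45 (-0.65), and Fcgr3 (-0.56) had adjusted p of 0.173 to 0.267. Some members stood near 0, with Csf1r at -0.02, Spi1 at 0.00 and Aif1, the calcium-binding protein IBA1, at 0.01. DESeq2 called 5 members lower, Mrc1, Cd53, Cd68, C1qa and Msr1, where 0.609% of all genes with any count were.

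The members' differences had a correlation of 0.239 with GC content in this comparison, and the median was -0.42 after the correction. Mrc1 was not called without WT replicate 1 or 2 or without mutant replicate 1 or 2, and Msr1 was called with it without WT replicate 3. Genes of other cell types differed here too. Of the 10 fibroblast genes, 8 were below 0 and the same number were lower at an unadjusted p under 0.05, with a median of -0.56, which lies further from 0 than that of the macrophage genes, and none was called. Dcn (-0.94), Lum (-0.87) and Postn (-0.67) had adjusted p of 0.0785, 0.144 and 0.101. Of 6 tested osteoclast genes, Ctsk was called lower (-1.03 ± 0.15 SE, adjusted p = 0.0339), and the median of the 6 was -0.08. Neutrophil and monocyte genes summed to 6.31 to 218 TPM in WT and 5.67 to 29.5 TPM in the mutant. The part of these cells in the result was not tested.

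The differences of the members between the Chaserr-/- and the Chaserr-/- Chd2m/m comparison were tested in 1 model over both sets. No member was called (edgeR, 0.112% of all genes), and 6 were higher and 6 lower at an unadjusted p under 0.05 (26.2% of all genes in either direction). DESeq2 called 4, Mrc1, Cd53, Msr1 and Cd48 (7.7% of all genes with any count). Mrc1 had a difference of effects of 1.42 ± 0.36 SE (adjusted p = 0.0781), which was 0.96 after the GC and length correction (adjusted p = 0.187). Without Chaserr-/- replicate 2, edgeR called 5 members, Cd48, Cd53, Cd68, Mrc1 and Msr1. Against the Chaserr+/- comparison, which shares the Chaserr-/- set with that test, no member's effect was called different (edgeR, 0.157% of all genes). There 0 members were higher and 6 lower at an unadjusted p under 0.05 (29.6% of all genes in either direction). DESeq2 called Cd68 and Laptm5 (8.6% of all genes with any count). Cd68 had a difference of effects of -1.36 ± 0.37 SE (adjusted p = 0.0652). Without Chaserr-/- replicate 2 edgeR called Cd68 and Laptm5, and without Chaserr+/- replicate 3 Cd68 and Tyrobp.

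**Figure D5:**
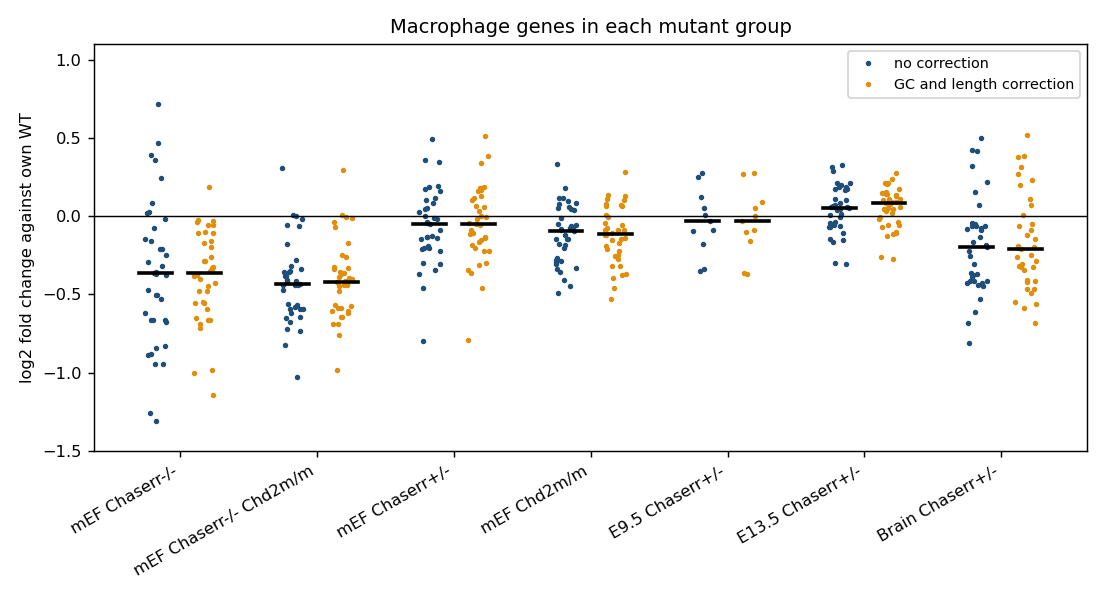
Log2 fold change of the members in each mutant group against its own WT, without (blue) and with (orange) the GC and length correction, with a point for each member tested and black lines for medians. Medians lie at -0.36 in Chaserr-/- and -0.43 in Chaserr-/- Chd2m/m mEFs, and between -0.20 and 0.05 in the other 5 groups without the correction.

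In Chaserr+/- mEFs no member was called by edgeR or DESeq2 (0.173% of all genes were, by edgeR). The summed TPM was 313, 449 and 654 against 410, 495 and 558 in WT, with overlap. Of 36 members tested, leaving out Aif1 and Cd74, 1 was lower, where 3.12% of all genes were, and 0 higher at an unadjusted p under 0.05, and the median was -0.05. That member was C5ar1, at 8.82, 11.6 and 10.8 CPM in WT and at 6.92, 6.88 and 3.97 CPM in Chaserr+/- mEFs (-0.80 ± 0.20 SE, adjusted p = 0.214), without overlap. Chaserr+/- replicate 3 had the lowest value.

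In Chd2m/m mEFs no member was called by edgeR or DESeq2 (0.0145% of all genes, by edgeR). The sums were 772 and 777 TPM against 666, 865 and 980 in WT. At an unadjusted p under 0.05, 2 of 38 members were lower, where 2.4% of all genes were, and 0 higher, and the median was -0.09. Tyrobp was at 35.03, 26.5 and 26.9 CPM in WT and at 24.9 and 21.8 CPM in Chd2m/m mEFs (-0.33 ± 0.13 SE, adjusted p = 0.937), without overlap. Ctss was at 22.1 to 30.4 CPM in WT and at 20.4 and 22.9 CPM in the mutant (-0.29 ± 0.13 SE), with overlap.

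Chaserr+/- embryos and brains gave no call by edgeR or DESeq2. At E9.5, 11 of 38 members passed the filter on low counts, 0 had an unadjusted p under 0.05, as 3.12% of all genes had, the median was -0.03, and 0% of all genes were called. At E13.5, all 38 were tested, 1 was higher, where 3.09% of all genes were, and 0 lower at an unadjusted p under 0.05, and 0.0314% of all genes were called. That member was Mrc1, at 51.4, 49.9 and 46.5 CPM in WT and at 56.6, 55.5 and 53.6 CPM in Chaserr+/- embryos (0.16 ± 0.06 SE, adjusted p = 0.732), without overlap. The median there was 0.05, and the sums were 543 to 578 TPM against 552 to 608.

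In adult Chaserr+/- brain, 30 of the 37 members tested (all but Msr1) were below 0, with a median of -0.20 and 0% of all genes called. At an unadjusted p under 0.05, 2 were lower, where 1.46% of all genes were, and 0 higher. Cd53 was at 9.64, 8.07 and 11.4 CPM in WT and at 6.26, 4.59 and 5.78 CPM in Chaserr+/- brains (-0.81 ± 0.25 SE, adjusted p = 1.00), and Tyrobp at 24.8, 21.6 and 20.3 against 16.1, 15.0 and 17.8 CPM (-0.44 ± 0.18 SE). Neither overlapped between groups. Cx3cr1 was at 58.7 to 68.9 CPM in WT and at 52.7, 21.6 and 42.6 CPM in Chaserr+/- brains, with Chaserr+/- replicate 2 the lowest. The sums were 825, 901 and 1240 TPM against 1042, 1130 and 1335 in WT, with overlap. Of the 10 listed microglia genes, all 10 were below 0 and 2 had an unadjusted p under 0.05, Olfml3 (-1.19 ± 0.30 SE) and Gpr34 (-1.40 ± 0.43 SE), with 0 called. The fit above had no block or kit term, and each group held libraries of both kits. With a kit term 0 members were called. With the replicate number as a block, which paired same-numbered brains and so their kits, 0 members were called. In that fit 11 were lower, where 7.01% of all genes were, and 1 higher at an unadjusted p under 0.05.

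Open chromatin at the members' start sites was taken from the authors' ATAC-seq peaks (mm9), called per library in mEFs of the Chaserr-/- and the Chaserr-/- Chd2m/m sets. Peaks within 300 bases of an annotated start were found for 5 to 7 of 38 members in WT cultures of the Chaserr-/- set and for 4, 6 and 9 in Chaserr-/- cultures. The counts were 6, 1 and 5 in WT cultures of the other set and 12, 8 and 6 in Chaserr-/- Chd2m/m cultures, where WT replicate 2 had 18661 peaks in all and mutant replicate 1 had 28349, against 58324 to 93597 in the other 10 libraries. Between 35.37% and 63.72% of all protein-coding genes had such a peak. Fcgr3 had a peak in all 12 libraries, Coro1a, an actin-binding protein of leukocytes, and Lcp1 in 11, Cd14 in 10, Lyz2 in 8 and C3ar1 in 6. Cd68 had a peak in 4 libraries (1 WT and 1 mutant of the Chaserr-/- set, and 2 Chaserr-/- Chd2m/m) and Laptm5 in 3. The peaks of Laptm5, 2344 to 2430 bases from its outermost start, and those of Coro1a, 2750 to 6418 bases from its own, lay at starts inside the genes, and neither gene had a peak within 300 bases of the outermost one. In 21 members, among them C1qc, C5ar1, Csf1r and Tyrobp, none of the 12 libraries had one.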

How the data were processed

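RNA was read from poly(A)-selected, strand-specific libraries (TruSeq for embryos and brain replicate 3, Lexogen SENSE for the others) and from RiboCop libraries for RIP. The authors deposited expected counts, TPM and FPKM per gene from RSEM, and ATAC-seq peaks from Bowtie2 and MACS2 with fold, −log10 p-value and −log10 q-value (weakest −log10 q-value 1.301). Tool versions were not given in the sources used here. The 4C libraries were not used here. The members and lists were chosen with earlier results of these data known.

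Deposited expected counts were rounded and tested with edgeR 4.0.16 (filterByExpr, TMM, quasi-likelihood, Benjamini-Hochberg over all genes tested, called at an adjusted p under 0.05), separately for each mutant and its own WT set. SE is the log2 fold change divided by the root of F. DESeq2 1.42.0, other scalings and filters, a lowess correction of each library for GC content and transcript length (span 0.3), a replicate block and leaving out each library were alternatives. Of all gene rows, 91.1% had a GC value. Scripts were tested on simulated data. Same-numbered brain libraries deviated together (correlations 0.437, 0.529 and 0.747, replicate 3 of both groups being of another kit). The labels do not pair them, and they were paired only in the replicate block. The Chaserr+/- brain values are otherwise from the fit without a block or kit term. No replicate pair agreed within sampling noise (lowest chi-square per degree of freedom 3.586). The total counts per library limit the precision. Members called are given in full, and otherwise the members with the smallest p, up to 8 per comparison. Promoters of 27 members were matched in RefSeq (GRCm38.p6). Peaks within 300 bases of an annotated start (GENCODE vM1, mm9) were counted.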

Additional observations from a re-analysis of the deposited data

Results flagged for a closer look

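Macrophage genes were also measured in the 6 RIP libraries labelled Neuro2a, which enter no comparison above. The expected counts of the 38 members summed to 5624 and 5558 in input, 3216 and 3541 in CHD2 RIP and 20245 and 8803 in IgG RIP, far above the 3 counts that a count of 0 allows. Their summed TPM was 513 and 538 in input, 808 and 811 in CHD2 RIP and 1309 and 1607 in IgG RIP. Cd74 made up 44.9% of the input sum, at 197 and 275 TPM. C1qb was at 46.7 and 40.7 TPM in input, 129 and 101 in CHD2 RIP and 246 and 150 in IgG RIP. Csf1r was at 11.2 to 14.3 TPM in input and at 48.6 and 78.5 TPM in IgG RIP, and the microglia gene Tmem119 at 10.1 and 11.4 TPM in input and 28.5 and 36.2 TPM in IgG RIP. Mrc1 was at 0 to 0.48 TPM and Cd53 at 0.29 to 1.74 TPM in all 6. The 6 listed Neuro2a genes summed to 964 to 1130 TPM in input, 787 to 802 in CHD2 RIP and 58.0 and 440 in IgG RIP, against 8.19 to 10.85 TPM in WT brain. The 8 listed neuron genes summed to 1374 and 1433 TPM in input, 2054 and 2067 in CHD2 RIP and 2633 and 3258 in IgG RIP, in the order of the macrophage sums. Where the macrophage transcripts came from was not tested.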

How the results depend on the processing

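The number of members called depended on the processing in the mEF comparisons. In Chaserr-/- mEFs it was 2 in the reported fit, 11 with DESeq2, 11 without a filter on low counts, 11 with at least 10 counts in every library, 8 with upper-quartile scaling, 6 with the GC and length correction and 0 with WT cultures of the Chaserr+/- pregnancy added. Leaving out 1 library gave 0 to 10. The median log2 difference was 0.22 with those WT cultures added and -0.51 to -0.34 when 1 library was left out, and Tyrobp (0.19), C1qb (0.065) and Fcer1g (0.14) then stood above 0 with the added WT. In Chaserr-/- Chd2m/m mEFs the count was 5 with DESeq2, 0 with the GC and length correction, 3 with the replicate block, 0 with the block and the correction, and 0 to 2 without 1 library. In Chd2m/m mEFs the block gave 1, Tyrobp. The test of the difference between Chaserr-/- and Chaserr-/- Chd2m/m effects called 4 with DESeq2, 1 without the filter and 0 to 5 without 1 library, and that against Chaserr+/- called 2, 1 and 0 to 2. In these mEF sets and in the embryos the deviations of same-numbered libraries had correlations of -0.286 to 0.354. With so few libraries this cannot show whether the numbers pair them. The block changed no other call. In E9.5 embryos, leaving out 1 library turned the sign of some estimates, with a range of -0.0047 to 0.21 for Cd68, -0.30 to 0.62 for Ncf4, -0.19 to 0.036 for Ncf1 and -0.34 to 0.0037 for Mrc1. The median at E13.5 ranged from -0.057 to 0.096 without 1 library. The ratio of the Chaserr-/- to the Chaserr+/- WT set was 2.55 by the median log2 TPM, and that of E13.5 to E9.5 was 12.96 without the 3 highest members and 28.3 by the median log2 TPM. With a window of 1000 bases a median of 10 members had a peak in Chaserr-/- mEFs, and without 1 library the median in WT cultures of the Chaserr-/- Chd2m/m set was 3 to 5.5. Brain against E13.5 could not be fitted without WT brain replicate 3, the only one with the embryos' kit. The cause of these changes was not tested. At E9.5 most members were too low at this depth to be tested.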
